A study of Mus musculus with 24 samples.

Results

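The comparison described here sets 2 short hairpin RNAs against the same gene, Cdk8, side by side in R1 mouse embryonic stem (ES) cells. Its members are the 3 arrays titled for shCdk8-1 and the 3 titled for shCdk8-2 on day 13, 6 of the 24 arrays in the series. The series asks what loss of Cdk8 or Med12 does to the transcriptome of these cells. It also holds a non-targeting hairpin (shNTC) on days 8 and 13, both Cdk8 hairpins on day 8 and 2 Med12 hairpins on day 13, in 8 groups of 3 arrays. Each hairpin was delivered by lentivirus, and RNA was taken 8 or 13 days after infection. On every array the Cy5 channel held the cells' RNA and the Cy3 channel a universal mouse reference RNA pooled from several cell lines, without dye swaps, so a value is a log2 ratio of cells over reference. The genotype of R1, the sequences of the hairpins and any selection of infected cells are not given in the sources used here. The replicates are called biological, but nothing says that they came from separate infections. The p-values below therefore rest on the variation among these arrays, which may be technical.

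Cdk8 is a cyclin-dependent kinase. It belongs to a dissociable module of Mediator, which carries signals from transcription factors to RNA polymerase II. The module pairs Cdk8, or its paralogue Cdk19, with cyclin C (Ccnc), Med12 and Med13 or Med13l, and binds Mediator reversibly. RNA interference lowers a transcript to a degree that depends on the hairpin, and a hairpin can also act on other transcripts that match its seed. For that reason hairpins with different sequences are commonly compared with each other.

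The labelled cell type was checked against its markers. Of 10 ES markers listed, Nanog was not among the genes tested. All 9 of the 9 ES markers tested, Pou5f1 and Sox2 among them, were above background and above the reference on all 6 arrays. Their mean log2 ratio ran from 5.43 to 5.56 with shCdk8-1 and from 5.55 to 5.67 with shCdk8-2. Of 11 fibroblast markers, which would mark feeder cells, 9 were above background and 0 above the reference on all 6 arrays. The reference pools several cell lines, so a value below it does not show that a marker is absent. Of the 11 markers 1, Acta2, differed between the hairpins, and their mean ran from -4.84 to -4.33 with shCdk8-1 and from -4.95 to -4.21 with shCdk8-2. The arrays of a hairpin correlated with each other at r between 0.9826 and 0.993 over 22394 genes, and arrays of different hairpins at r between 0.9748 and 0.9826. Replicate 3 of shCdk8-2 stood apart in quality: 48.9% of its spots were well above background in Cy5, against 64.2% to 72.4% on the 5 other arrays compared, and results are therefore also given without it. The 6 arrays lay on 6 different slides, so no slide held both hairpins on day 13. Slide could be used as a block only through the other groups of the 24 arrays.

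The first question was how deep the loss of Cdk8 was with each hairpin. The brighter Cdk8 probe read -0.57, -0.57 and -0.46 in shNTC cells of day 13. It read -1.37, -1.54 and -1.54 with shCdk8-1. It read -1.28, -1.16 and -1.07 with shCdk8-2. All 6 knockdown arrays lay below the 3 shNTC arrays, and the 3 shCdk8-1 arrays lay below the 3 shCdk8-2 arrays. Relative to shNTC, 51.8% of the signal ratio of this Cdk8 probe remained with shCdk8-1 (95% confidence interval 46.5% to 57.6%) and 64.4% with shCdk8-2 (57.8% to 71.7%). Cdk8 was higher with shCdk8-2 than with shCdk8-1 by 0.31 on the log2 scale (SE 0.074, 95% interval 0.16 to 0.47, limma adjusted p = 0.0072), 1 of 2615 genes called among 22394 tested (11.7%). A gene is called where its Benjamini-Hochberg adjusted p in limma, over all genes tested, is under 0.05.

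The difference in depth rested on that probe. A second Cdk8 probe was at -0.66 ± 0.051 (SD, n = 3) in shNTC cells, -1.09 ± 0.059 with shCdk8-1 and -1 ± 0.096 with shCdk8-2, where 2 of 3 arrays were well above background. Both hairpins were below shNTC on it, while the hairpins overlapped and differed by 0.09. On day 8 the brighter probe again read higher with shCdk8-2, by 0.40 (limma adjusted p = 0.00082), whereas the second probe differed by -0.09. In the fit with slide as a block the difference of the brighter probe was 0.19 on each day and called on neither (limma adjusted p = 0.21 on day 13 and 0.3 on day 8). Without shCdk8-2 replicate 3 it was 0.27 (limma adjusted p = 0.044).

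**Figure D1:**
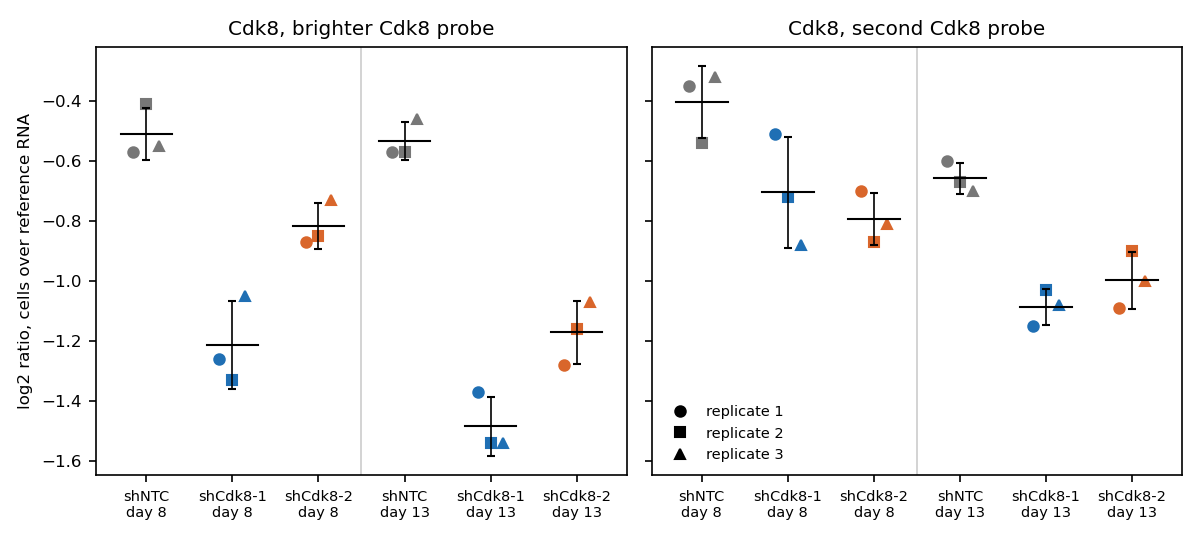
Log2 ratio of cells over reference RNA for the brighter Cdk8 probe (left) and the second Cdk8 probe (right) on each array of shNTC, shCdk8-1 and shCdk8-2 on days 8 and 13. Symbols mark replicates, horizontal lines means and error bars 1 SD (n = 3). On the brighter probe the 3 shCdk8-1 arrays of day 13 lie below the 3 shCdk8-2 arrays, and on the second probe the hairpins overlap.

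Of the 7 genes listed for the kinase module 5 were measured, and Cdk8 was the 1 called between the hairpins. Cdk19, the paralogous kinase, read -1.71, -1.71 and -1.81 with shCdk8-1 and -1.71, -1.76 and -1.72 with shCdk8-2, a difference of 0.01 (95% interval -0.19 to 0.21). Ccnc, the cyclin partner, differed by -0.01, Med12, which activates the kinase, by 0.02 (0.15 on its other probe) and Med13l, which tethers the module, by 0.06. Their arrays overlapped between the hairpins. Of the 23 core Mediator genes tested, 3 were higher and 2 lower with shCdk8-2, with a median difference of 0.04 beside -0.0018 over all genes. The called share was 21.7%, beside 11.7% over all genes. Med11 was at 0.35, 0.41 and 0.42 with shCdk8-1 and at 0.77, 0.73 and 0.71 with shCdk8-2, without overlap (difference 0.34, limma adjusted p = 5.6e-05). Med1, which binds nuclear receptors, was higher by 0.45 on the probe used (0.79 under the slide block) and stood at 0.22 and -0.02 on its other probes. That block left 3 higher and 0 lower. Among 14 genes of the RNA interference machinery, Tarbp2, a Dicer partner, was higher by 0.20 and Ddx17, an RNA helicase, lower by 0.31, the latter with a second probe at 0.02. These were 14.3% of that list, near the 11.7% over all genes. Tarbp2 lost its call under the slide block (limma adjusted p = 0.32) and without shCdk8-2 replicate 3 (0.057), which left 1 of the 14 lower and 0 higher in either fit.

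Across the array, 1242 genes (5.55%) were higher and 1373 (6.13%) lower with shCdk8-2 than with shCdk8-1. The differences were mostly small: the median size among called genes was 0.31 on the log2 scale, and 31 genes (0.138%) differed at least 2-fold, 9 higher (0.0402%) and 22 lower (0.0982%). In 2580 genes (11.5%) the call came with 3 arrays of 1 hairpin all beyond the 3 of the other, whereas 6512 genes (29.1%) were separated in this way with or without a call. Without shCdk8-2 replicate 3, 2164 genes were called. Adding slide as a block left 1257 genes called (5.61%), 565 higher (2.52%) and 692 lower (3.09%). Each of the 2615 genes had the same sign in both of those fits, and 1910 of them were called in the first and 1066 in the second. Both fits reuse the arrays in which these genes were called, so an unchanged sign was likely from the start.

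Several genes were further from shNTC with shCdk8-2. Dhrs7, a short-chain dehydrogenase, read -2.20, -2.18 and -2.23 in shNTC cells, -2.38, -2.32 and -2.31 with shCdk8-1 and -3.65, -3.85 and -3.89 with shCdk8-2. Its 3 shCdk8-2 arrays lay far below the other 6. It was lower with shCdk8-2 than with shCdk8-1 by 1.46 (SE 0.066, limma adjusted p = 5.4e-11), 2.75-fold. Against shNTC, Dhrs7 was at -0.13 with shCdk8-1 (limma adjusted p = 0.24) and at -1.59 with shCdk8-2 (limma adjusted p = 1.1e-11). Zfp352, a zinc finger gene of the 2-cell embryo, differed from shNTC by 0.06 and -1.09, and Slc40a1, the iron exporter ferroportin, by -0.21 and 0.91. Both comparisons with shNTC share the same 3 control arrays. In the fit without a block, those arrays do not enter the difference between hairpins, but they add to the spread that its test uses.

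Other genes were further from shNTC with shCdk8-1. Acss1, a mitochondrial acetyl-CoA synthetase, read -1.73, -1.69 and -1.76 in shNTC cells, -0.34, -0.54 and -0.48 with shCdk8-1 and -1.95, -2.1 and -2.0 with shCdk8-2. The shCdk8-1 arrays were high and the shCdk8-2 arrays slightly below shNTC, with no overlap. The difference of -1.57 (SE 0.078, limma adjusted p = 9.4e-11) was the largest in size of all called genes. Stac3, an adaptor of excitation-contraction coupling in muscle, read 0.47, 0.52 and 0.30 with shCdk8-1 against -1.19, -0.98 and -0.94 with shCdk8-2. Glod5, a glyoxalase domain gene, read 1.90, 1.73 and 1.79 against 0.46, 0.37 and 0.45. The shNTC arrays of Stac3 and Glod5 lay nearer to shCdk8-2, at a mean of -0.82 and 0.65.

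Reep4, which clears endoplasmic reticulum from mitotic chromosomes, read -0.29, -0.24 and -0.26 in shNTC cells, -1.51, -1.31 and -1.44 with shCdk8-1 and -0.51, -0.37 and -0.24 with shCdk8-2. Its shCdk8-1 arrays were low, and the highest shCdk8-2 array reached those of shNTC. It was higher with shCdk8-2 by 1.05 (SE 0.074, limma adjusted p = 1.2e-08). Hal, the histidine ammonia-lyase that opens histidine breakdown, was also low with shCdk8-1, at 0.19, 0.26 and 0.25 with shCdk8-1 against 1.25, 1.07 and 1.25 with shCdk8-2 and a mean of 1.25 in shNTC cells. Septin2, a filament-forming GTPase, read -1.09, -1.03 and -1.13 against -0.13, -0.19 and -0.17, and its second probe differed by 0.34 in place of 0.92.

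For a further set the hairpins lay on opposite sides of shNTC. Against shNTC, shCdk8-1 gave calls for 12.6% of genes, 6.5% above and 6.1% below the control. For shCdk8-2 the share was 11.6%, with 5.86% above and 5.69% below. Aire, the regulator of self-antigen expression in the thymus, read 1.81, 1.75 and 1.74 in shNTC cells, 1.28, 1.30 and 1.14 with shCdk8-1 and 2.38, 2.33 and 2.38 with shCdk8-2. The shNTC arrays fell between those of the hairpins. The difference of Aire was 1.12 (SE 0.074, limma adjusted p = 4e-09). Tmem59l, 4933434E20Rik and Acss1 were also among the 5 largest differences of genes called against shNTC in opposite directions. Itgb4, a laminin-binding integrin, read 0.76, 0.75 and 0.76 against 1.89, 1.85 and 1.75. Its shNTC arrays, at a mean of 1.40, again lay between those of the hairpins.

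The 15 highest and 15 lowest genes with a symbol included Onecut2 (1.04), a homeobox factor, Rapgef3 (0.96), the cAMP-activated exchange factor for Rap, and Zfhx3 (0.94) on the higher side. Morc4 differed by 0.99 on the probe used and by 0.15 on its other probe. On the lower side Cxcl12, a chemokine, differed by -1.15 on the probe used and by 0.02 on a second one, and Mapre2, a microtubule end-binding gene, by -1.04 and -0.09. Nsg2, a neuronal vesicle gene, read 4.77, 4.28 and 4.36 with shCdk8-1 and 3.37, 3.36 and 2.95 with shCdk8-2. It and Gm11487 were no longer called without shCdk8-2 replicate 3 (limma adjusted p = 0.097 and 0.076). Under the slide block, Msc, Car4, Pramel39, Pramel37, Nsg2, Zfp352, Tmprss5, Snap91 and Gm11487 were not called, at adjusted p between 0.084 and 0.27 in limma. Pramel37 and Pramel39 both lie on chromosome 5, and their promoters share 262 of 300 bases compared position by position. The array may not tell such copies apart, which was not tested on the probes.

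**Figure D2:**
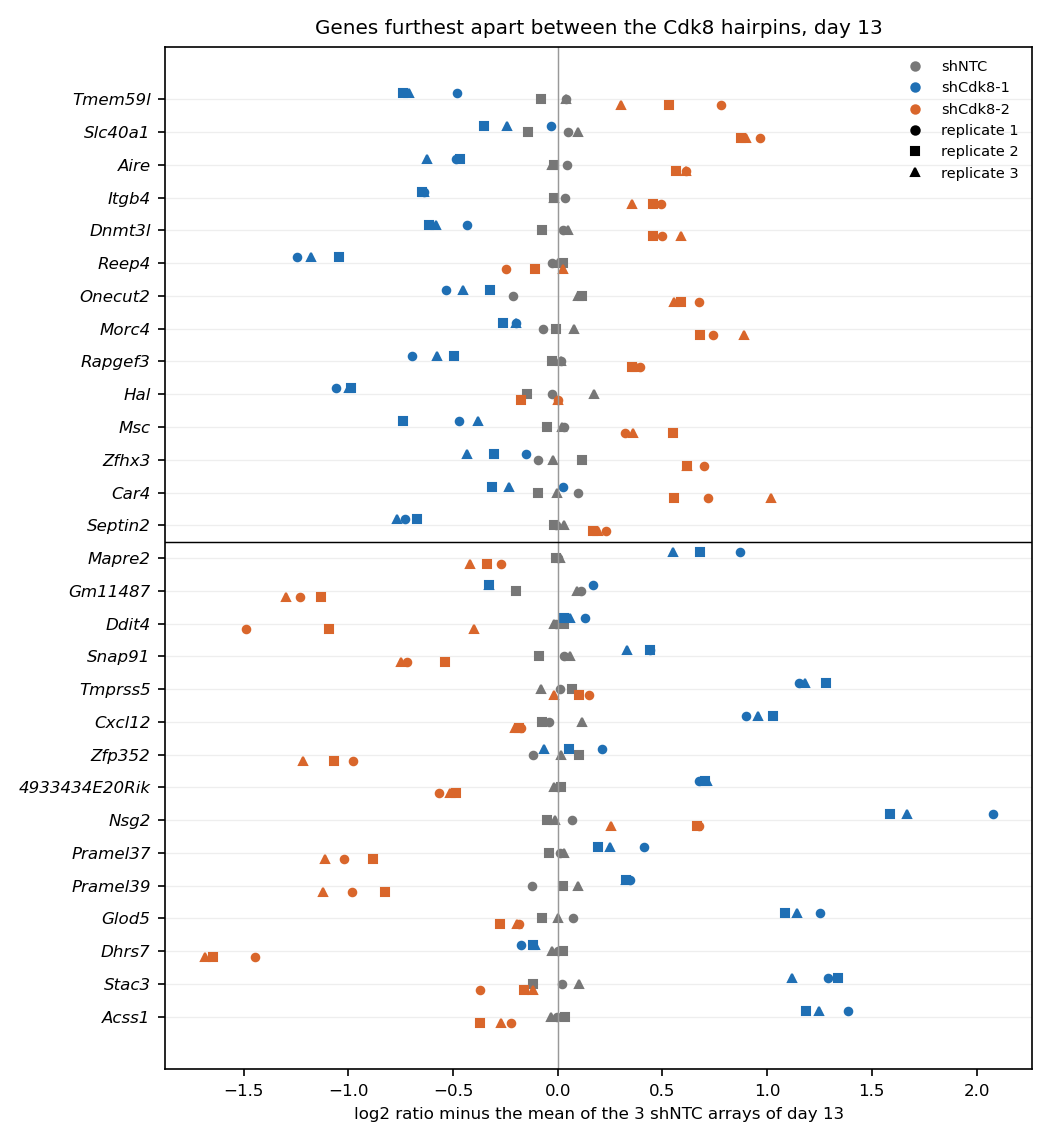
Log2 ratio minus the mean of the 3 shNTC arrays of day 13, for genes among the 15 highest and 15 lowest between the Cdk8 hairpins, with 1 symbol per array. Blue (shCdk8-1) and orange (shCdk8-2) do not overlap in any row, as the choice of genes requires. For Hal the orange points lie at shNTC, for Reep4 1 of 3 does, and for Dhrs7 the blue points lie near it.

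The depth of Cdk8 loss was then set beside the size of the other differences. Among 2775 genes (12.4%) called for the mean of both hairpins against shNTC, 1400 higher (6.25%) and 1375 lower (6.14%), 1491 (53.7%) were further from shNTC with shCdk8-1, the hairpin with the lower brighter-probe Cdk8 signal, and 1284 with shCdk8-2. The median size was 0.28 with shCdk8-1 and 0.26 with shCdk8-2. Of the 819 of these genes that also had a called hairpin difference, 476 were further with shCdk8-1 and 343 with shCdk8-2. Of the same 2775 genes, 1474 were further with shCdk8-1 without shCdk8-2 replicate 3, and 1455 with slide as a block. Where the set was also redefined without that replicate, the share was 50.1%. These are counts over genes that share the same arrays, and they have no test.

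Calls among genes of cholesterol and fatty acid synthesis lay mostly on the lower side with shCdk8-2. Of 40 genes tested, 14 were lower and 1, the cholesterol exporter Abca1, higher, with a median difference of -0.17 beside -0.0018 over all genes. Over all genes 6.13% were lower and 5.55% higher, and these shares also stand beside the list counts that follow. Hmgcs1, which makes HMG-CoA at the head of the pathway, read 0.31, 0.15 and 0.08 with shCdk8-1 and -0.36, -0.39 and -0.33 with shCdk8-2. Its shNTC arrays, at -0.41, -0.40 and -0.37, lay with those of shCdk8-2. The difference of Hmgcs1 was -0.54 (SE 0.061, limma adjusted p = 4.7e-06), and its second probe gave -0.39. Scd2, a fatty acid desaturase, lay on both sides of shNTC, by 0.33 with shCdk8-1 and by -0.37 with shCdk8-2. Stard4, a sterol carrier, was lower by 0.59 on the probe used, with its other probes at 0.02 and -0.14.

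The other lower members included Fdps, Cyp51, Msmo1, Sc5d, Tm7sf2 and Dhcr7, enzymes of the later steps to cholesterol, by 0.22 to 0.49. Srebf1, a transcription factor of the pathway, was lower by 0.16. Mylip, which promotes breakdown of the LDL receptor, and Abcg1, a sterol exporter, act against sterol content, and they were lower as well, by 0.32 and 0.38. The slide block left 10 of the 40 lower and 0 higher, and without shCdk8-2 replicate 3, 13 and 1. The list's median stayed between -0.20 and -0.12 under every scaling tried. The list median against shNTC was 0.16 with shCdk8-1 and -0.03 with shCdk8-2.

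Promoters of 4 of these genes, 300 bases around the RefSeq start on GRCm38.p6, are shown because the members were lower together. Hmgcs1 was named by rule, Acss1 had the largest difference, and Cyp51 and Msmo1 were chosen after their values were seen. Capitals mark CCAAT, the binding motif of NF-Y, and TCACNCCAC, a form of the sterol regulatory element, on either strand, so CCAAT on the other strand appears as ATTGG.
Hmgcs1, chr13:119690101-119690400, plus strand: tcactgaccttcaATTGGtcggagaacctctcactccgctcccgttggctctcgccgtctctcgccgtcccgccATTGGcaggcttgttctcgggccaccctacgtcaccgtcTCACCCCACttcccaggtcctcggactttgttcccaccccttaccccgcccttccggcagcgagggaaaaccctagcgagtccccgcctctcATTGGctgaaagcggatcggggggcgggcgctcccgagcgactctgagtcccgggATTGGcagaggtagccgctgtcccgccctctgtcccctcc
Cyp51, chr5:4104648-4104947, minus strand: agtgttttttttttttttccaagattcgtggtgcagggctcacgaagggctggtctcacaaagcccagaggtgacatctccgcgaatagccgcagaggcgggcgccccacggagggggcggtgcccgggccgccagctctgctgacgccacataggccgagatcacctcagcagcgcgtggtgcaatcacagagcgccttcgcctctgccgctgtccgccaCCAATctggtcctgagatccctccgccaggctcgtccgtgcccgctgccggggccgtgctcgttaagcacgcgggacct
Msmo1, chr8:64733529-64733828, minus strand: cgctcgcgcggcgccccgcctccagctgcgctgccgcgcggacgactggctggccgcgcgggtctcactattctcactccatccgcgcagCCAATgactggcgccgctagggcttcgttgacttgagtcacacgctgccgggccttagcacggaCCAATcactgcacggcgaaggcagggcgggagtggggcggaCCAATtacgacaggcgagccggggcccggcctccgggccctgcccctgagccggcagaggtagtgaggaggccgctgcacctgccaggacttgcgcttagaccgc
Acss1, chr2:150668191-150668490, minus strand: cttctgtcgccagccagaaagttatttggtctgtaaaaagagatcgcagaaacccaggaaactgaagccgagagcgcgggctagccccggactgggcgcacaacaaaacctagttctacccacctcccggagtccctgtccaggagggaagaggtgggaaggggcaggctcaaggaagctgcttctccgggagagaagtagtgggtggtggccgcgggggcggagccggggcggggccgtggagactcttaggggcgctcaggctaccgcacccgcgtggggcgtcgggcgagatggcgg
The Hmgcs1 promoter held 4 matches to CCAAT and 1 to TCACNCCAC, Msmo1 3 to CCAAT, Cyp51 1 and Acss1 0. Of the 40 genes tested in the list, 28 had a promoter in the RefSeq table, and 22 of those held CCAAT, against 37.4% of all 32851 promoters. Among the lower members 8 of 10 with a promoter held it. TCACNCCAC was found in 1 of the 28 and in 1.24% of all promoters. The list counts take a gene as a match if any of its promoters matched, whereas the shares of all promoters count each promoter by itself. A gene with several promoters has more chances of a match, so the counts and the shares are not on the same base. Matches describe the letters in these windows.

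Calls among genes of the 2-cell-like state, a rare state of ES cells that resembles the early embryo, also lay mostly on the lower side. Of 14 tested, 5 were lower and 1 higher, with a median of -0.44. Tcstv1 read 4.73, 4.74 and 4.67 with shCdk8-1 and 3.89, 3.82 and 3.65 with shCdk8-2, and its other 2 probes gave -0.96 and -1.11. The shCdk8-2 arrays lay below those of shCdk8-1, which lay below shNTC at a mean of 5.1, although the latter step was not called (limma adjusted p = 0.14). Sp110, a nuclear body gene, was lower by 0.81 and Gm5662 by 0.62. Zfp352 read 2.20, 2.04 and 1.92 against 1.01, 0.92 and 0.77, and a second probe gave -0.46. In bulk RNA, fewer cells in that state and less of the RNA per cell cannot be told apart. Tcstv1, Gm5662 and Usp17la belong to families of similar copies, so their signal may be shared. Blocking on slide left 2 of the 14 lower, Sp110 and Gm5662, and 0 higher, so that Tcstv1 (limma adjusted p = 0.11) and Zfp352 lost their calls, and without shCdk8-2 replicate 3, 4 and 0.

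The calls among pluripotency genes lay on the other side. Of 33 tested, 7 were higher with shCdk8-2 and 0 lower, with a median of 0.13, and 5 were higher with slide as a block. On the Cy5 channel alone 11 were higher and 4 lower. Dnmt3l, a cofactor of the de novo DNA methyltransferases, read 5.43, 5.33 and 5.45 in shNTC cells, 4.97, 4.79 and 4.82 with shCdk8-1 and 5.90, 5.86 and 5.99 with shCdk8-2. The hairpins lay on opposite sides of shNTC without overlap (difference 1.06, SE 0.10, limma adjusted p = 8.4e-07). Tbx3, a T-box factor of naive cells, read 1.53, 1.35 and 1.28 against 2.35, 2.19 and 2.17, below shNTC with each hairpin. Klf5 was higher by 0.44 and Utf1 by 0.44, the latter without a call under the slide block (limma adjusted p = 0.1).

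The central pluripotency factors given here had no call between the hairpins in the fit of all arrays, and Nanog was not among the genes tested. Pou5f1 read 6.42, 6.24 and 6.29 with shCdk8-1 and 6.01, 5.98 and 6.78 with shCdk8-2, a difference of -0.06 (95% interval -0.60 to 0.47). The Pou5f1 value of shCdk8-2 replicate 3 stood above the other 5. Sox2 read 7.16, 6.99 and 7.28 against 6.97, 6.89 and 6.73, and Zfp42 read 8.77, 8.70 and 8.50 against 9.12, 8.92 and 8.89. Their arrays did not overlap between the hairpins, and their SDs within a hairpin were 0.12 to 0.15, while the fit's SEs were 0.46 for the Sox2 difference of -0.28 and 0.32 for the Zfp42 difference of 0.32. The fit pools the spread of all groups, and shCdk8-1 day 8 replicate 1 read 5.15 for Sox2 beside 7.59 and 7.23. Without that array and shMed12-1 day 13 replicate 3, Zfp42 was called (limma adjusted p = 0.041) and Sox2 was not (0.3). Esrrb differed by 0.20 (SE 0.23) and Klf4 by -0.02 (SE 0.056). The interval for Pou5f1 holds a difference of the size seen for Klf5.

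Among neural genes 8 of 31 tested were lower with shCdk8-2, 0 were higher and 23 were not called. The list median was -0.15, moving to -0.07 under the slide block and to -0.10 without shCdk8-2 replicate 3. Hes6, a regulator of neural differentiation, read 1.49, 1.61 and 1.55 with shCdk8-1 and 0.63, 0.61 and 0.57 with shCdk8-2, against 0.63, 0.54 and 0.56 in shNTC cells. The shCdk8-1 arrays were high and the others overlapped (difference -0.94, SE 0.047, limma adjusted p = 9.4e-11), with -1.10 on a second probe. Zic1, a zinc finger factor, read 1.55, 1.23 and 1.25 against 0.45, 0.31 and 0.34. The Notch ligands Dll1 and Dll3 were lower by 0.96 and 0.82. Blocking on slide left 3 lower and 0 higher, Dll1 and Dll3 being among those lost, and without shCdk8-2 replicate 3, 6 were lower and 1 higher. The 5 neural markers tested, Sox1, Pax6, Nes and Tubb3 among them, gave 0 calls, with a mean between 0.81 and 0.87 with shCdk8-1 and between 0.81 and 0.84 with shCdk8-2. Their part in the result was not tested.

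The lists of other lineages had 4% (mesoderm) to 17.6% (primed epiblast) of their genes called. The share was 25.8% in the neural list and 11.7% over all genes. Of 33 primitive and visceral endoderm genes, 4 were higher and 1 lower. Foxa2 read 0.76, 0.54 and 0.54 with shCdk8-1 and -0.08, -0.03 and -0.17 with shCdk8-2, whereas Sox21, Rbp4 and Sox7 were higher by 0.73, 0.53 and 0.44. Sox21 was counted in this list and not in the neural one, where it would be a higher call. Among 17 primed epiblast genes 3 were lower, Sall2 by 0.60, Pim2 by 0.51 and Cdh2, N-cadherin, by 0.38. The median of that list was nevertheless 0.065, and under the slide block 0.18, with 1 gene higher and 1 lower. Mesoderm genes gave 1 call of 25, Gata2, and trophectoderm genes 2 of 18, Gata2 and Id2. The 3 trophectoderm markers Cdx2, Gata3 and Krt7 gave 0 calls, with a mean between 0.52 and 0.58 with shCdk8-1 and between 0.84 and 0.96 with shCdk8-2, and their part in these calls was not tested. The slide block ended the calls of Rbp4, Sox7, Pim2, Cdh2, Gata2, Id2 and Hoxb2, at limma adjusted p between 0.054 and 0.32, leaving 0 calls for mesoderm and trophectoderm genes. Rbp4, Cdh2 and Id2 also lost theirs without shCdk8-2 replicate 3 (limma adjusted p = 0.058, 0.12 and 0.069). Of 24 HOX genes 2 were lower, Hoxb13 by 0.76 and Hoxb2 by 0.47.

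Of 49 genes that respond to unfolded proteins or to a shortage of amino acids, 11 were lower with shCdk8-2 and 2 higher, with a median of -0.05. Ddit4, an inhibitor of mTORC1 induced by stress, read -0.54, -0.64 and -0.61 with shCdk8-1 and -2.16, -1.76 and -1.07 with shCdk8-2. The shCdk8-2 arrays were spread widely, with replicate 3 nearest to shCdk8-1, and lay below it throughout (difference -1.07, SE 0.25, limma adjusted p = 0.0071). Slc6a9, a glycine transporter, Chac1, which degrades glutathione, and Psat1, of serine synthesis, were lower by 0.52, 0.48 and 0.36. Hspa5, the chaperone BiP of the endoplasmic reticulum, was higher by 0.23. The slide block left 6 lower and 1 higher, with a median of -0.13.

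Immediate early genes, which respond within minutes to growth factors and stress, moved in both directions. Of 40 tested, 9 were higher and 6 lower, with a median of -0.0017. Ccn2, a matricellular gene, read -0.17, -0.37 and -0.18 with shCdk8-1 and 0.55, 0.64 and 0.35 with shCdk8-2, above shNTC at a mean of -0.38. Gadd45g read -0.21, -0.23 and -0.34 against -0.97, -1.02 and -0.97. Its shCdk8-1 arrays were high, and shNTC was at -1.10. Junb and Ier5 were lower by 0.67 and 0.66. Myc read -1.38, -1.33 and -1.44 against -0.84, -0.78 and -0.70, above shNTC with shCdk8-2, and all 3 of its probes were higher, by 0.41 to 0.69. The slide block left 5 higher and 5 lower.

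Of 18 ERK feedback and FGF target genes 4 were higher and 1, Ccnd1, lower, with a median of 0.13. The slide block left 1 higher, Etv4, and a median of 0.22. Etv4, an ETS factor, was higher by 0.41, Spred1, an inhibitor of RAS signalling, by 0.34 and Dusp6, the ERK phosphatase, by 0.32. Among 41 cell cycle genes 8 were lower and 1 higher. Cdkn2b, the CDK inhibitor p15, read -1.58, -1.58 and -1.65 with shCdk8-1 and -2.31, -2.42 and -2.40 with shCdk8-2, with shNTC between them at -2.18. Ccnd3, a D-type cyclin, was higher by 0.49. Blocking on slide left 5 cell cycle genes lower and 1 higher. Among 33 imprinted genes 6 were lower and 3 higher, of which 2 and 0 remained with that block, Peg12 and Impact being the 2. Peg12 read 0.77, 0.65 and 0.76 against -0.12, -0.07 and -0.06, and Impact 1.30, 1.34 and 1.25 against 0.53, 0.45 and 0.52.

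Acta2, Actc1, Tagln and Cav1 were called above shNTC with each hairpin and differed in degree. Acta2, smooth muscle actin, read -1.54, -1.49 and -1.51 with shCdk8-1 and -2.30, -2.38 and -2.32 with shCdk8-2, with shNTC at -2.91. Its difference was -0.82, with other probes at -0.94 and -0.03. Actc1, cardiac actin, was lower by 0.80 with shCdk8-2 and Tagln, transgelin, higher by 0.23. Cav1, a caveolin, was lower by 0.65, with a second probe at -0.12. Of 22 contractile genes 3 were lower and 1 higher, and of 36 fibroblast and feeder genes 5 were lower and 4 higher. The slide block left 2 lower and 0 higher of the contractile genes, Tagln losing its call (limma adjusted p = 0.091), and 2 each way of the fibroblast genes.

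Of 16 genes of MHC class I and antigen processing, 0 were called. Psmb8, an immunoproteasome subunit, read -2.41, -2.36 and -2.37 with shCdk8-1 and -2.57, -2.78 and -2.77 with shCdk8-2 (difference -0.33, limma adjusted p = 0.095), against -3.35 in shNTC cells. B2m, the light chain of class I molecules, differed by -0.25, and its arrays overlapped. Of 31 interferon response genes 2 were higher and 2 lower, a called share of 12.9% beside 11.7% over all genes. Oas2, a sensor of double-stranded RNA, read -2.60, -2.59 and -2.48 against -2.09, -2.01 and -2.04, and Zbp1 was lower by 0.62. Oas2 lost its call under the slide block and without shCdk8-2 replicate 3 (limma adjusted p = 0.62 and 0.082).

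The remaining lists gave calls in both directions or few in all. Their called shares ran from 6.25% (ribosome biogenesis) to 27.3% (MYC partners), beside 11.7% over all genes. Of the genes tested, 3 of 34 TGF-beta, NODAL and BMP genes were higher and 4 lower, with Tgfb3, a ligand of the family, lower by 0.66 and Inhbb higher by 0.48. Tgfb3 was not called under the slide block (-0.47, limma adjusted p = 0.21). For WNT targets 2 of 25 were higher and 2 lower, for p53 targets 1 of 28 and 3, for MYC partners 2 of 11 and 1, and for hypoxia and glycolysis genes 3 of 35 and 1. For germ line genes 3 of 35 were higher and 3 lower, with Rpl39l, a ribosomal protein paralogue, lower by 0.73. For ribosome biogenesis genes 2 of 32 were higher and 0 lower. For YAP-responsive genes 2 of 16 and 1 were called, for annexins, S100 proteins and caveolins 3 of 22 and 1, for epithelial keratins and adhesion genes 2 of 20 and 2, for interferon-induced GTPases 0 of 12 and 1, and for DNA methylation enzymes 1 of 12, Dnmt3l, and 0. Under the slide block the higher and lower counts were 2 and 4 for the TGF-beta list, 3 and 0 for WNT targets, 0 and 2 for p53 targets, 1 and 1 for MYC partners, 1 and 1 for hypoxia genes, 2 and 1 for germ line genes and 1 and 1 for ribosome biogenesis. They were 1 and 0 for YAP-responsive genes, 2 and 1 for annexins, 2 and 1 for epithelial genes, 0 and 0 for the GTPases and 1 and 0 for DNA methylation enzymes.

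**Figure D3:**
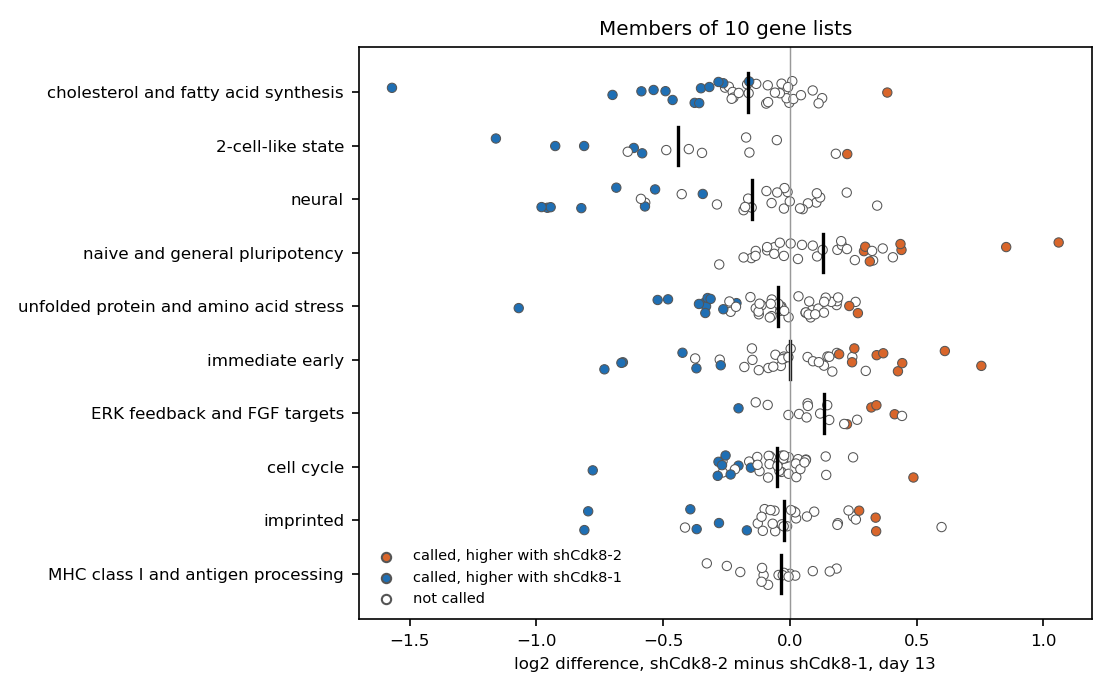
Log2 difference between the hairpins on day 13 (shCdk8-2 minus shCdk8-1) for each tested member of 10 gene lists, with 1 circle per gene and a black bar at the list median. Filled circles are called genes, and vertical jitter carries no value. The medians of the cholesterol, 2-cell-like and neural lists lie at -0.17, -0.44 and -0.15 and that of the pluripotency list at 0.13.

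The same pair of hairpins was measured on day 8 on 6 other arrays. There 3973 genes (17.7%) were called, 9.17% higher and 8.57% lower with shCdk8-2. Of the 2615 genes called on day 13, 1385 were called on day 8, which is 53% of the day 13 list and 34.9% of the day 8 list, 1354 of them in the same direction and 31 in the opposite one. The sign was the same on both days for 86.2% of the day 13 calls and for 62.2% of all genes. Across 22394 genes, which are not independent replicates, the differences of the days had r = 0.44 (rho = 0.37). The days did not lie on separate slides. Slides 4 and 5 held shCdk8-1 arrays of both days, and slides 7 and 8 held shCdk8-2 arrays of both days. Slide 6 held shCdk8-1 of day 8 and shCdk8-2 of day 13. An effect of slide could thus repeat as a hairpin difference on both days. With slide as a block 332 genes were called on both days in the same direction and 1 in the opposite one, with r = 0.60. In that fit 26.5% of the day 13 calls were called on day 8, and 55.3% of the day 8 calls on day 13. Of the 31 genes that differed at least 2-fold on day 13, 23 were called on day 8 in the same direction.

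Several of the genes with the largest differences also differed on day 8. Dhrs7, Acss1, Stac3 and Glod5 were also named by a rule that requires a call on both days. Among the 15 lowest, Nsg2, Pramel39, Tmprss5, Snap91, Gm11487 and Ddit4 were not called on day 8 (limma adjusted p between 0.066 and 0.68). Ddit4 had the other sign there, at 0.34. Dhrs7 differed by -1.48 on day 8 and -1.46 on day 13, Acss1 by -1.33 and -1.57, Stac3 by -2.03 and -1.47 and Glod5 by -1.31 and -1.38. Septin2 differed by 0.91 and 0.92, Reep4 by 0.96 and 1.05, Hal by 0.92 and 0.96 and Hes6 by -1.04 and -0.94. Cdk8 itself differed by 0.40 and 0.31. These values were close on both days for Dhrs7, Septin2 and Hal, and Slc40a1 moved from 0.36 to 1.12.

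The change between the days was tested as an interaction, and 448 genes (2%) were called, 239 higher (1.07%) and 209 lower (0.933%). Ddit4 stood at 0.34 on day 8, without a call, and at -1.07 on day 13. Id2, an inhibitor of bHLH factors, differed by -1.17 and then 0.23, and Gata2 by -0.72 and then 0.41. Aqp8, an aquaporin, differed by -1.78 on day 8, while on day 13 its arrays read -0.95, -0.85 and -0.90 with shCdk8-1 and -1.09, -1.15 and -1.0 with shCdk8-2 (difference -0.18, limma adjusted p = 0.25). The Cdk8 difference gave an interaction of -0.08 (95% interval -0.30 to 0.14, limma adjusted p = 0.74).

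**Figure D4:**
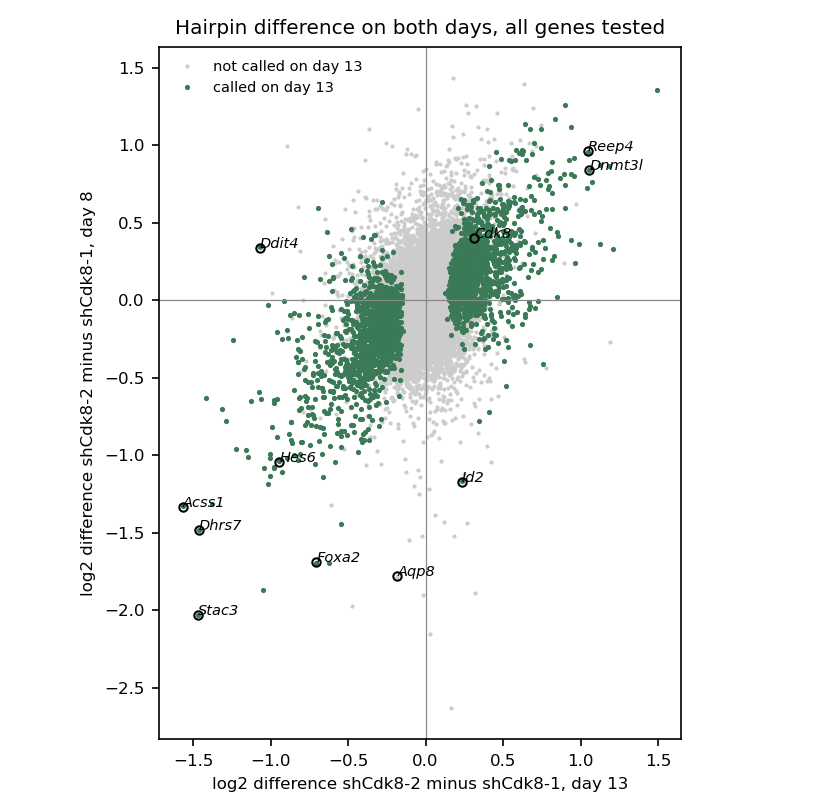
Log2 difference between the Cdk8 hairpins (shCdk8-2 minus shCdk8-1) on day 13 (horizontal) and day 8 (vertical) for the 22394 genes tested, with genes called on day 13 in green and named genes circled. Of the called genes 86.2% lie in the quadrants where the sign is the same on both days. Ddit4 and Id2 lie outside them.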

How the data were processed

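RNA of 24 samples was hybridised to Agilent 2-colour arrays, which Agilent Feature Extraction 10.7 read, per the submitters' processing notes. In the deposited scanner files, median spot and background intensities are not normalized, and the log10 ratio is Cy5 over Cy3, per the file headers. A value table deposited by the authors is in log2 of the same ratio: its slope on the scanner values was 0.9998 to 1 per array, with column medians from -0.00493 to 0.121 and 3376 to 10335 blanks per array, whose reason is unknown.

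Intensities were corrected by normexp (offset 50) and normalized by loess within each array. The design named a gene name column and mean brightness, and RefSeq accessions and median intensities took their place: 22951 of 41174 probes matched a symbol (GRCm38.p6). Probes were kept if well above background in Cy5 throughout at least 1 group of 3, with the brightest probe per gene, leaving 22394 genes. All 24 arrays entered 1 limma fit (limma 3.58.1 in R 4.3.3) of 8 group means with 16 residual degrees of freedom and a two-sided moderated test. Adjusted p-values are Benjamini-Hochberg over all genes, and called means under 0.05. The number of arrays limits the precision. The fit was tested on simulated data. The alternatives covered background correction, normalization, filters, probe choice, blocks and left-out arrays.

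Members and lists were chosen with earlier results of these data known. The named genes are the kinase module, the 15 highest and 15 lowest called differences without overlap, in each list the called members with the largest differences (4 at most, or 2 uncalled ones where none was called), Pou5f1, Sox2, Klf4, Zfp42, Esrrb and Myc, the 5 largest each way of genes called on both days and of the interaction, and the 5 largest called against shNTC in opposite directions. Genes given in list counts beyond these were chosen after their values were seen. Some items that the rules name are not reported here.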

Additional observations from a re-analysis of the deposited data

Results flagged for a closer look

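The hairpin difference itself differed between day 8 and day 13 for 31 named genes, by the interaction test in limma at an adjusted p under 0.05. Values in parentheses are the day 13 difference minus the day 8 difference on the log2 scale. The 5 highest of the whole array among genes with a symbol were chosen for this value: Aqp8 (1.6), Id2 (1.40), Tnfrsf25 (1.24), Glipr1 (1.21) and Ctsh (1.14). Aqp8 was at -1.78 on day 8 and -0.18 on day 13, Tnfrsf25, a death receptor, at -1.22 on day 8 and 0.02 on day 13 and Id2 at -1.17 on day 8 and 0.23 on day 13. A second Tnfrsf25 probe did not follow, at -0.18 on day 8 and 0.14 on day 13, while a second Id2 probe did, at -0.96 and 0.20. Glipr1 and Ctsh, a cathepsin, were lower with shCdk8-2 on day 8, by 1.25 and 0.91, and were not called on day 13. With slide as a block 70 genes were called in the interaction, against 448 without it. Transcription factors of early lineages followed with Gata2 (1.13), Foxa2 (0.99) and Sox7 (0.69).

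Genes with a larger positive difference on day 13, a smaller negative one or a change from negative to positive were Slc40a1 (0.76), Rapgef3 (0.72), Morc4 (0.63), Dusp6 (0.60), Inhbb (0.59), Myc (0.55), Ccn1 (0.55), S100a6 (0.50), Ccn2 (0.49), Ier5 (0.48), Perp (0.48), Etv4 (0.47), Tbx3 (0.44) and Kdm3a (0.30). Dusp6, Inhbb, Ccn1, S100a6 and Etv4 were the ones that changed sign. A second Inhbb probe stood at 0.08 on day 8 and 0.14 on day 13, and a second Morc4 probe at -0.06 and 0.15. The ERK-responsive genes Dusp6 and Etv4 went from -0.28 and -0.06 on day 8 to 0.32 and 0.41 on day 13. Genes that moved the other way were Scd2 (-0.43), Peg12 (-0.48), Acta2 (-0.49), Slc6a9 (-0.65), Chac1 (-0.94), Mapk8ip1 (-1.06), Kcnj4 (-1.27), Ovca2 (-1.29) and Ddit4 (-1.41). On day 8 Chac1 and Ovca2 were higher with shCdk8-2 by 0.46 and 0.59, and Ddit4 and Slc6a9 stood at 0.34 and 0.13 without a call. All 4 were lower on day 13. The day 13 values of Ovca2 with shCdk8-2 were -0.48, 0.27 and 0.36, so replicate 1 was low. Kcnj4 read 0.04, 0.74 and 0.92 and Mapk8ip1 -0.16, 0.33 and 0.71 on the same arrays, with replicate 1 again the lowest. The hairpin difference of Kcnj4 was 1.01 on day 8 and -0.25 on day 13, but 0.05 and -0.03 on its second probe.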

How the results depend on the processing

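For the hairpin difference on day 13 (2615 genes called, 1242 higher and 1373 lower), the count moved by more than 1.5 times to 4735 (2168 and 2567) on the Feature Extraction log ratio, 4752 (2192 and 2560) in the authors' value table, 268 (115 and 153) where loess gave way to median centring, 742 (351 and 391) with scaling between arrays, 1257 (565 and 692) with slide as a fixed block and 1395 (646 and 749) at an adjusted p under 0.01. Leaving out each of the 6 arrays gave 1916 to 2164 genes, 873 to 1047 higher and 993 to 1117 lower. The day 8 count of 3973 moved to 860 with median centring, 1859 with scaling, 2356 with the compared arrays alone, 602 with slide as a fixed block and 2140 at an adjusted p under 0.01, and to 2703 to 4406 when 1 array was left out. The interaction count of 448 moved to 1319, 1366, 16, 59, 275, 47, 726, 70 and 112 with the Feature Extraction ratio, the authors' table, median centring, scaling, no filter on dim probes, the compared arrays alone, shCdk8-1 day 8 replicate 1 and shMed12-1 day 13 replicate 3 left out, slide as a fixed block and an adjusted p under 0.01. Leaving out 1 array gave 201 to 756: 234 without shCdk8-1 day 13 replicate 2, 201 and 281 without shCdk8-2 day 13 replicates 1 and 2, and 756 without shCdk8-1 day 8 replicate 3.

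The Cdk8 difference between hairpins was 0.34 with median centring (limma adjusted p = 0.43), 0.27 with scaling (0.72) and 0.19 with slide as a fixed block (0.21), and was not called there. Cdk8 with shCdk8-2 against shNTC was -0.62 with scaling (0.13). Over left-out arrays these ran from 0.26 to 0.37 and from -0.68 to -0.58, and shCdk8-1 against shNTC from -1.01 to -0.92. Calls in the lists thinned where arrays were median centred and where they were scaled: to 0 higher and 2 lower, and 0 and 4, for cholesterol genes, 0 and 4, and 0 and 5, for neural genes, 0 and 4, and 0 and 3, for 2-cell-like genes, 2 and 0, and 0 and 0, for pluripotency genes and 0 and 1 in both for stress genes. The list medians kept their sign. The share of genes further from shNTC with shCdk8-1 ran from 50.1% to 60.7%. Same-numbered arrays of the hairpins had r of -0.25, -0.17 and -0.15 in their deviations from group means. Across groups the median r was -0.016 for the same replicate number and 0.0077 for other numbers. Deviations within a group of 3 are tied to each other, so these values cannot show whether the samples were prepared in pairs. With the replicate block 2571 genes were called on day 13, 3882 on day 8 and 429 in the interaction, and 2 of 139 named genes lost their call. Of 2913 values recomputed for named genes on day 13, 2557 stayed as they were, called or not called, 338 lost a call, 18 gained one and 0 reversed. In the main fit 123 of the 140 named genes were called. Scaling between arrays, added after the data were seen, reversed the interaction of Ccn1 (-0.67), S100a6 (-1.44) and Ier5 (-0.68). The cause of these moves was not tested. Aquantile leaves log ratios as they are, and all scans share 1 date, so scan date was not run as a block.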
